A study of Mus musculus with 12 samples.

Results

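The 9 genes of the myofibroblast and scar matrix programme were followed across the stromal cells of arthritic mouse joints: Postn, Tnc, Cthrc1, Lrrc15, Fn1, Acta2, Tagln, Myh11 and Cnn1. They were taken by symbol, and all 9 were found among the 27998 genes of the count tables. With earlier results of these data in view, the members were chosen by their levels in these libraries. Their levels across cell types, clusters and runs of libraries are therefore a description, and tests are given for the labelled stages and for positive against negative cells within libraries. Counts of genes called between runs belong to the description. The files hold single-cell RNA counts of live CD45-negative synovial cells from the hind limbs of WT C57BL/6 mice, males of 8 to 10 weeks. Each library pooled the joints of 3 animals, and there were 3 libraries for each of 4 labels. The labels were rest (no serum, day 0), peak (taken on days 7 to 9), then resolving on day 15 and, last, resolved on day 22 of serum transfer-induced arthritis (STIA), a self-limiting arthritis started here by intravenous injection of 100 μl of K/BxN serum from KRN mice. Of 21042 deposited cells, 20060 passed the limits on genes and UMIs (unique molecular identifiers, which count captured RNA molecules) per cell, and a library held between 7468914 and 16566202 UMIs in these cells. The median was 5358 UMIs per deposited cell in every library, and the part of a barcode before its suffix never occurred in more than 1 library.

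Myofibroblasts are contractile, matrix-producing cells that arise in wounds and fibrosis, classically under TGF-beta and mechanical tension. Smooth muscle and mural cells of vessels use the same contractile genes: Acta2 encodes smooth muscle actin, Tagln the actin-binding protein transgelin, Myh11 the smooth muscle myosin heavy chain and Cnn1 calponin. Postn (periostin) and Tnc (tenascin C) encode matricellular proteins of healing tissue, Fn1 encodes fibronectin, Cthrc1 a secreted collagen triple helix repeat protein, and Lrrc15 a leucine-rich repeat membrane protein known from activated and tumour fibroblasts. In the joint, fibroblasts form a lining that faces the synovial fluid and a sublining below it.

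On GRCm38 (GENCODE M21), all 9 are protein-coding. Postn lies at chr3:54361109-54391037 (+), Tnc at chr4:63959785-64047015 (-), Cthrc1 at chr15:39076932-39087121 (+), Lrrc15 at chr16:30269302-30283256 (-) and Fn1 at chr1:71585520-71653200 (-). The contractile genes Acta2 at chr19:34241090-34255590 (-), Tagln at chr9:45929619-45936058 (-), Myh11 at chr16:14194535-14291372 (-) and Cnn1 at chr9:22099216-22109630 (+) are spread over 3 chromosomes. Tnc overlaps 8030451A03Rik, Fn1 overlaps Apol7d, and Tagln overlaps Pcsk7 and Gm48529, each on the opposite strand. RefSeq promoter windows on GRCm38.p6 were matched for 5 of the 9 genes, and 150 bases before the start are shown for 4 of them, since 2 of them are contractile and 2 matrix genes. Capitals mark matches, on either strand, to motifs searched over 250 bases before the start: the CArG box (the element bound by serum response factor) with 1 G or C allowed in its A/T core, CATTCC (the MCAT element), TGANTCA (the AP-1 element) and TATAAA. The windows are Acta2 chr19:34255374-34255523 (-), Cnn1 chr9:22099103-22099252 (+), Lrrc15 chr16:30283255-30283404 (-) and the second of 2 Postn windows, chr3:54360957-54361106 (+).
Acta2: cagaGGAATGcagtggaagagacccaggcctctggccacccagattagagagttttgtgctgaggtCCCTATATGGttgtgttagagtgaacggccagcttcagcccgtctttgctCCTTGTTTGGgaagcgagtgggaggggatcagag
Cnn1: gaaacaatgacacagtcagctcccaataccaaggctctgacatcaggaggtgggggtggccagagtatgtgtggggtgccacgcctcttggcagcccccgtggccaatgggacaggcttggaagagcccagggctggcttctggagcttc
Lrrc15: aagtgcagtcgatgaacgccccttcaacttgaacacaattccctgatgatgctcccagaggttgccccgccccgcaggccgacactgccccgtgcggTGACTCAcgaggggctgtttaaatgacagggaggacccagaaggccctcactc
Postn: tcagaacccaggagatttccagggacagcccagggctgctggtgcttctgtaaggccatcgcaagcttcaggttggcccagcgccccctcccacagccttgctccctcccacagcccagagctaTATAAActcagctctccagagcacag
The Acta2 window holds 2 CArG-like matches, CCCTATATGG at -84 and CCTTGTTTGG at -34, and the complement of CATTCC at -146. The Lrrc15 window holds TGACTCA at -53 and the Postn window TATAAA at -26, while none of these letters are in the Cnn1 window. CArG-like boxes, which include the strict form, were present in 7.24% of 32851 promoter windows of that length, CATTCC in 12.6%, TGANTCA in 6.75% and TATAAA in 7.59%. The printed Acta2 window lies inside the longer GENCODE gene. These matches describe the letters and no binding was measured.

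One feature of the libraries has to be stated before the results. Each library carries its own barcode suffix, 1 to 12, and the libraries resembled each other by runs of 3 consecutive suffixes and not by label. Over 11371 genes in the summed fibroblast-like cells, the most similar library was of the same run for 11 of 12 libraries and of the same label for 0 of 12. Suffixes 1 to 3 were labelled rest 1, peak 1 and resolving 1. Suffixes 4 to 6 were labelled resolved 1, rest 2 and peak 2, suffixes 7 to 9 resolving 2, resolved 2 and rest 3, and suffixes 10 to 12 peak 3, resolving 3 and resolved 3. What separates the runs is not given in the sources used here. The runs are used below as a technical label, never as a condition, and since they were recognised from these data, differences between them are described without p-values. Genes are counted as called between runs by a test on groups found in the same data. These counts describe the size of the differences and are no evidence for them. The stage labels were used as given. Whether each file carries the label of its own sample was not tested, and stage values rest on that.

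Clustering with the 9 genes kept out gave 23 clusters, named by marker genes. Fibroblast-like cells made up 11653 cells in 9 clusters, tenocyte-like cells 2686, vascular endothelial-like cells 1773, osteoblast-like cells 1418, proliferating-like cells 694 and perivascular-like cells 655. Levels are given as CPM, a gene's counts per 1000000 UMIs summed over the cells of a class in each library with at least 10 such cells, as mean ± SD over n libraries. They compare cells for 1 gene and not one gene with another, since no transcript length enters them.

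The contractile genes were highest in perivascular-like cells, the mural cells of vessels marked by Rgs5 and Notch3. Acta2 reached 9565 ± 2776 CPM there, with 5274 CPM in the lowest and 13531 CPM in the highest of 12 libraries, and lay above the next class, proliferating-like cells at 314 ± 179 CPM (n = 6), in 6 of 6 libraries that had both. Tagln was at 4238 ± 1503 CPM in perivascular-like and 123 ± 49.2 CPM in vascular endothelial-like cells, and was higher in the former in 12 of 12 libraries. Myh11 was at 969 ± 535 CPM against 17.7 ± 9.3 CPM in the same 2 classes, again in 12 of 12 libraries. Cnn1 was at 310 ± 182 CPM in perivascular-like cells and at 5.99 ± 16.1 CPM in chondrocyte-like cells (n = 8), where resolved replicate 2 alone held 45.8 CPM and the median was 0. In osteoblast-like cells Cnn1 was at 2.78 ± 6.19 CPM (n = 12). Below perivascular-like cells, the order of the classes for Acta2 and Tagln did not differ between neighbours beyond 1 SD of their within-library difference over the next 3 steps.

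In fibroblast-like cells the late contractile genes were nearly absent. Myh11 was at 0.898 ± 1.16 CPM and Cnn1 at 0.613 ± 0.684 CPM (n = 12), with at least 1 UMI in 48 and 44 of 11653 cells. In vascular endothelial-like cells the shares were 3.61% for Myh11 and 0.338% for Cnn1, against 0.412% and 0.378% in fibroblast-like cells, at median depths of 3188 and 5559 UMIs per cell. Cells were then thinned to 2000 UMIs each, which left out the shallower ones: 217 fibroblast-like cells and 201 vascular endothelial-like cells, 184 of these from the first of its 2 clusters, cluster 9, and 17 from the other, cluster 13. After thinning, Myh11 was seen in 0.114% of fibroblast-like and 2.16% of vascular endothelial-like cells and Cnn1 in 0.157% and 0.127%, so neither share stood above that of endothelial cells beyond counting error. Acta2 was at 71.6 ± 68.7 CPM and Tagln at 19.9 ± 15.4 CPM in fibroblast-like cells. Acta2 was seen in 13.4% of them (95% Wilson interval 12.8% to 14.0%) and in 5.97% after thinning, against 8.27% of thinned vascular endothelial-like cells. That class joined 2 clusters, with Acta2 in 14.6% of thinned cells of cluster 13, led by Fam167b, Plvap and Vwf, where Tagln and Myh11 were also seen at 218 and 28.2 CPM over all its cells, and in 3.39% of cluster 9, led by Timp4, Aqp7 and Car4. The fibroblast-like share thus lay between them. Myh11 was lower in fibroblast-like cells than in either cluster (0.564% and 4.23% after thinning). Intervals cover counting error only.

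The matrix genes followed other cells. Postn was highest in osteoblast-like cells at 3823 ± 1019.7 CPM (n = 12), above proliferating-like cells at 1163 ± 293 CPM in 6 of 6 libraries, and periostin is known from the periosteum. Tnc was at 539 ± 209 CPM in osteoblast-like and 475 ± 76.6 CPM in proliferating-like cells, a difference within 1 SD. Lrrc15 was at 103 ± 58 CPM in osteoblast-like cells, 74 ± 47.9 CPM in proliferating-like and 60.4 ± 62.9 CPM in tenocyte-like cells, and these neighbours did not differ beyond their spread. The tenocyte-like mean joins cluster 3, at 18.4 ± 20.3 CPM (n = 12), and cluster 8, at 174 ± 117 CPM (n = 7). Cthrc1 was at 1663 ± 603 CPM in proliferating-like, 1119.7 ± 1242 CPM in tenocyte-like, 864 ± 372 CPM in osteoblast-like and 654 ± 618 CPM in fibroblast-like cells, again with no step beyond 1 SD. The proliferating-like values came only from libraries with suffixes 4 to 9, in which Postn, Tnc and Cthrc1 of fibroblast-like cells were also high.

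Fn1 had a different pattern. Fibroblast-like cells were at 3369 ± 1092 CPM (n = 12) and chondrocyte-like cells at 3321 ± 1383 CPM (n = 8), which did not differ beyond their spread. Tenocyte-like cells were at 1356 ± 751 CPM, osteoblast-like cells at 667 ± 167 CPM and perivascular-like cells at 298 ± 185 CPM. After thinning, 76.3% of fibroblast-like cells held a UMI of Fn1.

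**Figure D1:**
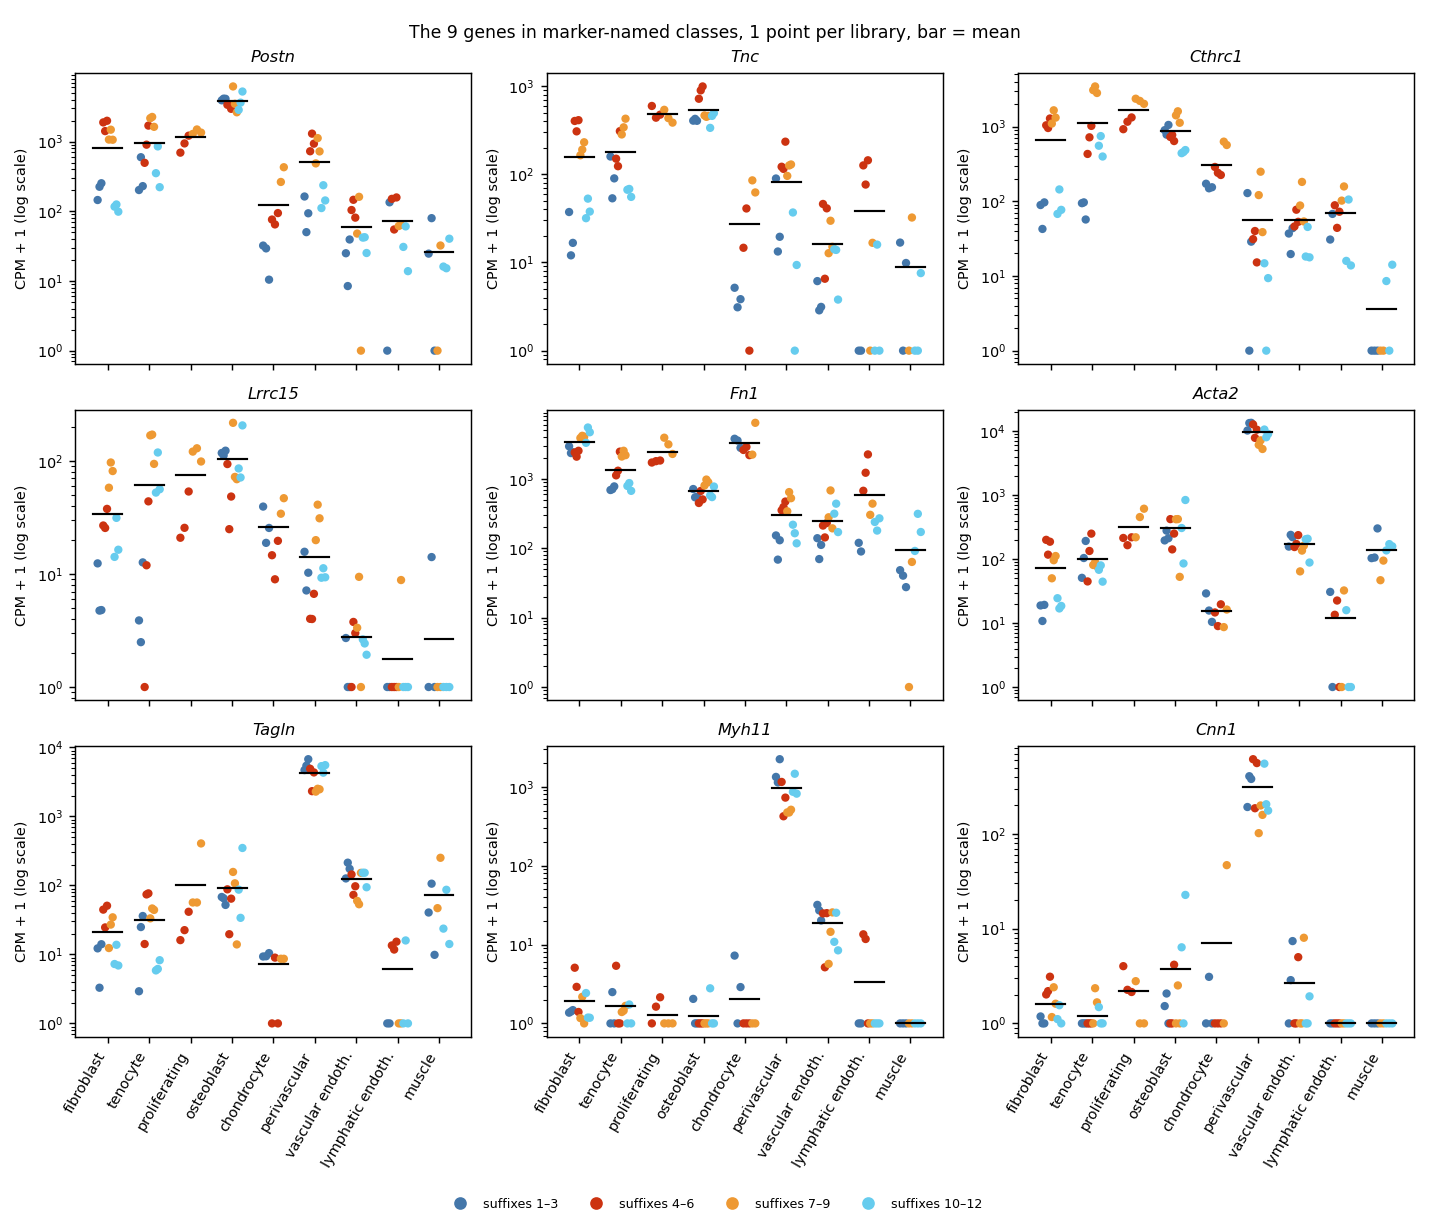
CPM + 1 on a log scale of each of the 9 genes in 9 marker-named classes, 1 point per library with at least 10 cells of the class, coloured by run of barcode suffixes, with a bar at the mean. Acta2, Tagln, Myh11 and Cnn1 stand apart in perivascular-like cells, Postn is highest in osteoblast-like cells at a mean of 3823 CPM, and the fibroblast-like points of Postn, Tnc and Cthrc1 fall into a high and a low set of libraries.

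Over all 23 clusters, each contractile gene had its highest r among the 9 with another contractile gene, and Postn, Tnc, Cthrc1 and Lrrc15 had theirs with one another. Pearson's r of log2(CPM + 1) was 0.92 between Acta2 and Tagln and 0.86 between Myh11 and Cnn1, and it was 0.85 between Cthrc1 and Lrrc15, 0.82 between Tnc and Cthrc1 and 0.81 between Postn and Cthrc1. Fn1 had r of 0.61 with Lrrc15, 0.57 with Cthrc1, 0.47 with Tnc, 0.22 with Postn and -0.13 with Acta2. The sets were not clean, with r of 0.67 between Postn and Tnc, 0.65 between Acta2 and Myh11 and 0.50 between Acta2 and Tnc. Clusters share libraries, so these values are descriptions. Among 6159 genes that reached 50 CPM in a cluster, the 3 most like Myh11 were Olfr558, Ephx3 and P2rx1, with r of 0.95, 0.94 and 0.93, and the same 3 led for Cnn1. Acta2 was most like Tagln, Rbpms2 and Myl9, the last a regulatory light chain of smooth muscle myosin. Tnc was most like Tnn (tenascin N, r of 0.90), Tnfsf11 (the osteoclast factor RANKL) and Cthrc1. Postn was most like Cdh11, a cadherin of synovial fibroblasts and osteoblasts, Mfap2 and Dclk1. Cthrc1 was most like Scarf2, Tmem263 and Pigs, Lrrc15 like Fkbp11, Serf1 and Cthrc1, and Fn1 like Trps1, Gm17455 and Adgrg2. Tagln was most like Acta2, Myl9 and Rbpms2.

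Perivascular-like cells were not uniform. Their own clustering gave 7 groups, of which 1 (150 cells, led by P2rx1, Pln and Smtn) was smooth-muscle-like and 1 (108 cells, with Kcnj8 and Col15a1) was pericyte-like by the markers. These names rest on enrichment over the other perivascular-like cells. The groups of 169, 134 and 32 cells also held all 6 pericyte markers in at least 20% of their cells. In the largest, of 169 cells, Acta2 was at 4734 ± 2202 CPM and Postn at 394 ± 292 CPM (n = 8 libraries). A further group of 47 cells, led by Oxnad1, Txndc11 and Lcmt2, also passed 3 smooth muscle markers and 0 pericyte markers. It held 10 cells in 1 library only, and over all its cells Acta2 was at 14958 CPM, Tagln at 7262 CPM and Myh11 at 2272 CPM. In smooth-muscle-like cells Acta2 was at 21481 ± 3699 CPM, Tagln at 10626 ± 2401 CPM, Myh11 at 2235 ± 448 CPM and Cnn1 at 1378 ± 836 CPM (n = 6 libraries). In pericyte-like cells the same genes were at 4507 ± 1529.9, 1156 ± 234, 160 ± 77.7 and 59 ± 71.5 CPM (n = 3 libraries). These 3 libraries were those with suffixes 7 to 9, and 5 of the 6 smooth-muscle-like ones had other suffixes. In resolved replicate 2, the library that had both, Acta2 was at 24348 CPM in smooth-muscle-like and 4463 CPM in pericyte-like cells. Postn ran the other way, at 39.1 ± 26.4 CPM in smooth-muscle-like, 827 ± 248 CPM in pericyte-like and 1283 ± 246 CPM in a group of 134 cells led by Cxcl5, Gfpt2 and Ccl19 (n = 5). That last group came from suffixes 4 to 9 in 131 of its cells (82 from suffixes 4 to 6 and 49 from 7 to 9), with 2 cells from suffixes 1 to 3 and 1 from 10 to 12. The smallest group, 15 cells led by Lbp and Angptl1, passed 7 fibroblast markers and 0 pericyte or smooth muscle markers by enrichment over the other perivascular-like cells. The group still held 6 pericyte and 6 smooth muscle markers in at least 20% of its cells, and Acta2 in 100% of them, at 1412 CPM. It held 179 of the 254 UMIs of Cthrc1 pooled over perivascular-like cells, at 1198 CPM against 12.9 to 48.3 CPM in the other 6 groups. No library held 10 of these 15 cells, so their part in each library's Cthrc1 value was not measured. By library, Cthrc1 of the class was at 247.7 CPM in the highest and 28.95 CPM in the median of 12 libraries.

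Within fibroblast-like cells, Postn, Cthrc1 and Lrrc15 were highest in clusters 0 and 6. Cluster 0, led by Cxcl5, Saa3 and Sfrp1, was at 2289 ± 374 CPM for Postn, 427 ± 83.7 CPM for Tnc, 1652 ± 360 CPM for Cthrc1 and 218 ± 74.4 CPM for Acta2 (n = 6 libraries). Cluster 6, led by Col5a3, Hp and Hmcn1, was at 1182 ± 500 CPM for Postn, 1462 ± 757 CPM for Cthrc1, 120 ± 50.9 CPM for Lrrc15 and 148 ± 75.6 CPM for Tnc (n = 10). Both were clusters of particular libraries: 1921 of the 1927 cells of cluster 0 came from suffixes 4 to 9, and 1057 of 1299 cells of cluster 6 from suffixes 7 to 9. A tenocyte-like cluster led by C1qtnf3 and Spon2 (cluster 8) had 2770.3 ± 744 CPM of Cthrc1 and 174 ± 117 CPM of Lrrc15 (n = 7), and 1039 of its 1118 cells came from suffixes 7 to 9. At Leiden resolution 0.5 and without upper limits per cell, the cluster led by these 2 genes was named fibroblast-like, and the other tenocyte-like cluster had 279 ± 166 CPM of Cthrc1 (n = 12), so the tenocyte-like mean of Cthrc1 rests on cluster 8. Postn was at 446 ± 277 CPM in cluster 3 (n = 12) and 2459.9 ± 898 CPM in cluster 8 (n = 7).

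The sublining cluster with Pi16 and Dpp4 was at 537 ± 382 CPM for Postn, 307 ± 397 CPM for Cthrc1 and 6.43 ± 5.55 CPM for Tnc (n = 12). The lining cluster with Prg4, which encodes lubricin, and Clic5 had little Postn, at 36.3 ± 27.7 CPM, but 169 ± 146 CPM of Tnc and 10781 ± 3224 CPM of Fn1 (n = 12). Fn1 in lining cells was 6139.7 CPM in the lowest library and 15736 CPM in the highest, so that even the lowest lay above the mean of every other fibroblast-like cluster. The next highest Fn1 was 3406 ± 1503 CPM in the cluster led by Cytl1 and Clu, and the lowest was 298 ± 117 CPM in the cluster led by Nppc and Col8a1.

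**Figure D2:**
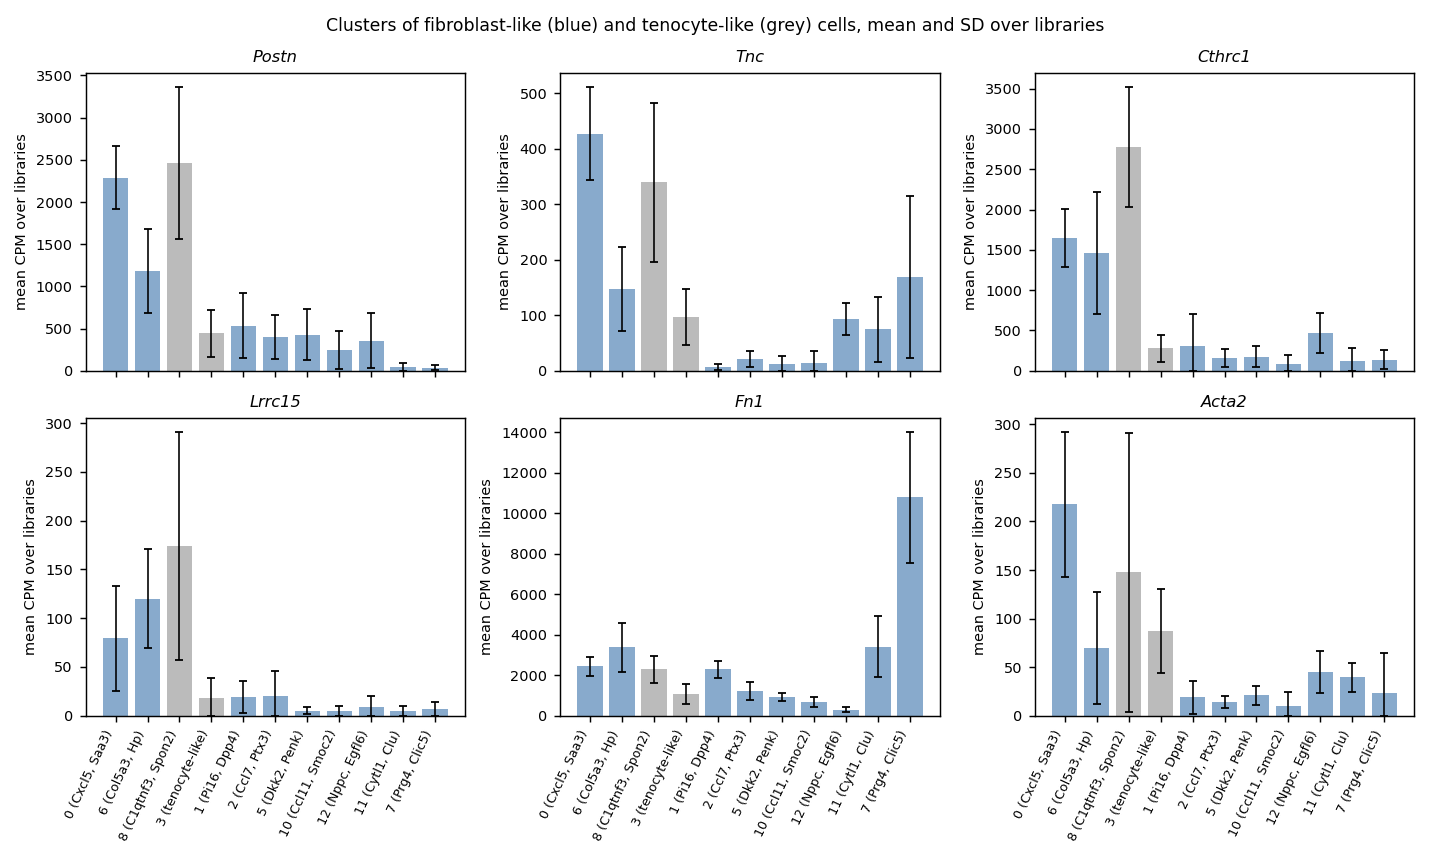
Mean CPM over libraries of 6 genes in the 9 fibroblast-like clusters (blue) and the 2 tenocyte-like clusters (grey), with bars of 1 SD that stop at 0. Postn, Tnc, Cthrc1, Lrrc15 and Acta2 are highest in clusters 0, 6 or 8, while Fn1 is highest in the lining cluster 7 at 10781 CPM.

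Between the labelled stages, no gene was called in fibroblast-like cells. Postn was at 144, 1414 and 1062 CPM in the 3 rest libraries, 224, 1989.7 and 116 CPM at peak, 252, 1069 and 124 CPM at resolving, and 1885, 1482 and 97.7 CPM at resolved. Every stage thus held low and high libraries, and the groups overlapped. Acta2 showed the same mixture, with 17.9, 116 and 111 CPM at rest and 9.78, 186 and 23.5 CPM at peak. On UMIs summed per library, a quasi-likelihood F-test in edgeR, adjusted by Benjamini-Hochberg, called 0 of 11801 genes (0% in each contrast) at adjusted p under 0.05 and a log2 fold change over 0.5 for peak, resolving and resolved, which share the rest libraries. Unadjusted p was under 0.05 for 71, 105 and 63 genes, and DESeq2 called 0, 1 and 1. Of the 9 genes, 7 passed the filter on low counts, Myh11 and Cnn1 did not, and 0 of the 7 had an unadjusted p under 0.05.

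The errors of those contrasts were wide. For Postn the log2 fold change from rest was -0.19 ± 1.25 (SE) at peak, -0.89 ± 1.26 at resolving and 0.36 ± 1.25 at resolved. For Fn1 it was -0.10 ± 0.36, 0.38 ± 0.36 and 0.35 ± 0.36. With the run as a block, Postn came to 0.51 ± 0.16, 0.46 ± 0.16 and 0.43 ± 0.16, which for peak and resolving was the opposite sign, with an unadjusted p of 0.0085, 0.016 and 0.018 and an adjusted p of 1 in edgeR each time. A stage difference was therefore not detectable with these labels, which is not a measure of its absence.

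Perivascular-like cells gave the same result by stage. Acta2 was at 10256, 7875 and 5274 CPM at rest and 13425, 10567 and 10628 CPM at peak, and the groups did not overlap, but the log2 fold change was 0.55 ± 0.35 with an adjusted p of 0.999 in edgeR. Cnn1 was at 191, 186 and 158 CPM at rest and 406, 559 and 551 CPM at peak, again without overlap, with a log2 fold change of 1.49 ± 0.48, an unadjusted p of 0.0085 and an adjusted p of 0.999. The smooth-muscle-like group, where Cnn1 was at 1378 CPM, held 17, 12 and 25 cells in peak 1, 2 and 3. It held 18 cells in rest 1 and under 10 in rest 2 and in rest 3. The part of cell make-up in the differences between rest and peak was not tested. Called genes came to 0 of 3196 (0%) in each of the 3 contrasts, with an unadjusted p under 0.05 for 40, 79 and 47 genes, and Lrrc15 was filtered out. DESeq2 gave 0 called genes in all 3. Without the filter on low counts, edgeR called 10, 12 and 9 genes. Among them were Cnn1 (1.53, adjusted p 0.032) and Cthrc1 (-2.52, adjusted p 0.00647) at peak and Postn (-1.54, adjusted p 0.0288) at resolving. The part of the 15 fibroblast-marked cells in the Cthrc1 value was not tested.

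Between runs of suffixes, the members differed widely. In fibroblast-like cells, Postn was at 144, 224 and 252 CPM in the libraries with suffixes 1 to 3, 1885, 1414 and 1989.7 CPM with 4 to 6, 1069, 1482 and 1062 CPM with 7 to 9, and 116, 124 and 97.7 CPM with 10 to 12. The 6 libraries with suffixes 4 to 9 all lay above the other 6, without overlap. Tnc split the same way, at 305 to 409 CPM in suffixes 4 to 6, 163 to 229 CPM in 7 to 9 and 11 to 51.9 CPM in the other 6. Cthrc1 was at 955 to 1650.0 CPM in suffixes 4 to 9 and 41.6 to 143 CPM in the other 6.

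Not every member peaked in the same run. Acta2 was highest in suffixes 4 to 6, at 199, 116 and 186 CPM, followed by 49.1, 95.1 and 111 CPM in 7 to 9, with 9.78 to 23.5 CPM elsewhere. Lrrc15 was highest in suffixes 7 to 9, at 57, 96 and 80.4 CPM, against 25.9, 24.5 and 36.7 CPM in 4 to 6, and was lowest at 3.74 CPM in the library with suffix 2. Fn1 was highest in 2 libraries of the last run, at 3315, 5513 and 4709.9 CPM in suffixes 10 to 12 and 3891, 4185 and 4043 CPM in 7 to 9, against 2093 to 2953 CPM in 1 to 6.

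Across the 4 runs the edgeR test, adjusted in the same way, called 5370 of 11801 genes (45.5%) in fibroblast-like cells. The 7 tested members were among them. This is a description, since the runs were recognised and the members chosen on these libraries. The range between the highest and lowest run, on the log2 scale, was 4.21 for Tnc and Cthrc1, 3.96 for Postn, 3.60 for Lrrc15, 3.53 for Acta2, 2.24 for Tagln and 0.95 for Fn1. Markers of other cell types in the same sums moved with the runs too. In order of suffix, proliferating-cell markers summed to 6.66, 41.3, 18.6 and 5.17 CPM as means of the 4 runs, osteoblast markers to 496, 104, 252 and 791 CPM, and smooth muscle markers to 292, 51.1, 177 and 332 CPM. Perivascular markers summed to 309, 497, 388 and 372 CPM and pericyte markers to 135, 160, 99.3 and 89.2 CPM. Tenocyte markers summed to 1025, 1288, 1526 and 1213 CPM, with the highest mean in the run where Lrrc15 was highest. The tenocyte sums of single libraries overlapped between the runs. By mean, proliferating-cell markers were thus high in the runs with high Postn and osteoblast and smooth muscle markers low, while perivascular and pericyte markers were highest in suffixes 4 to 6, as Acta2 was. Single libraries overlapped for 3 of these lists. Pericyte markers were at 169 CPM in suffix 2 and 145 CPM in suffix 6, and perivascular markers at 433 CPM in suffix 7 and 418 CPM in suffix 5. Osteoblast markers were at 464 CPM in suffix 7 and 300 CPM in suffix 3. The most abundant perivascular, pericyte and smooth muscle markers were Ndufa4l2, Steap4 and Mustn1. The part of these markers in the differences was not tested. In bulk sums, more cells of a high cluster and more RNA per cell cannot be told apart.

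The values were also taken within single clusters. In the Pi16 and Dpp4 sublining cluster, which every library held, Postn was at 148, 274 and 387 CPM in suffixes 1 to 3, 736, 690 and 782 CPM in 4 to 6, 1019, 1095 and 949 CPM in 7 to 9, and 93.4, 158 and 107 CPM in 10 to 12, so suffixes 4 to 9 lay above the other 6 here too, while suffixes 1 to 3 and 10 to 12 overlapped. Cthrc1 in the same cluster was at 27.4 to 50 CPM in suffixes 1 to 3 and 10 to 12, 181 to 272 CPM in 4 to 6 and 784 to 1174 CPM in 7 to 9. In lining cells, Tnc was at 368, 419 and 387 CPM in suffixes 4 to 6 and at 20.9 to 30.5 CPM in 1 to 3, while Fn1 was at 6139.7 to 6960.1 CPM in 4 to 6 and at 13906 to 15736 CPM in 10 to 12. Clusters were drawn from the same cells, so these values carry no test.

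**Figure D3:**
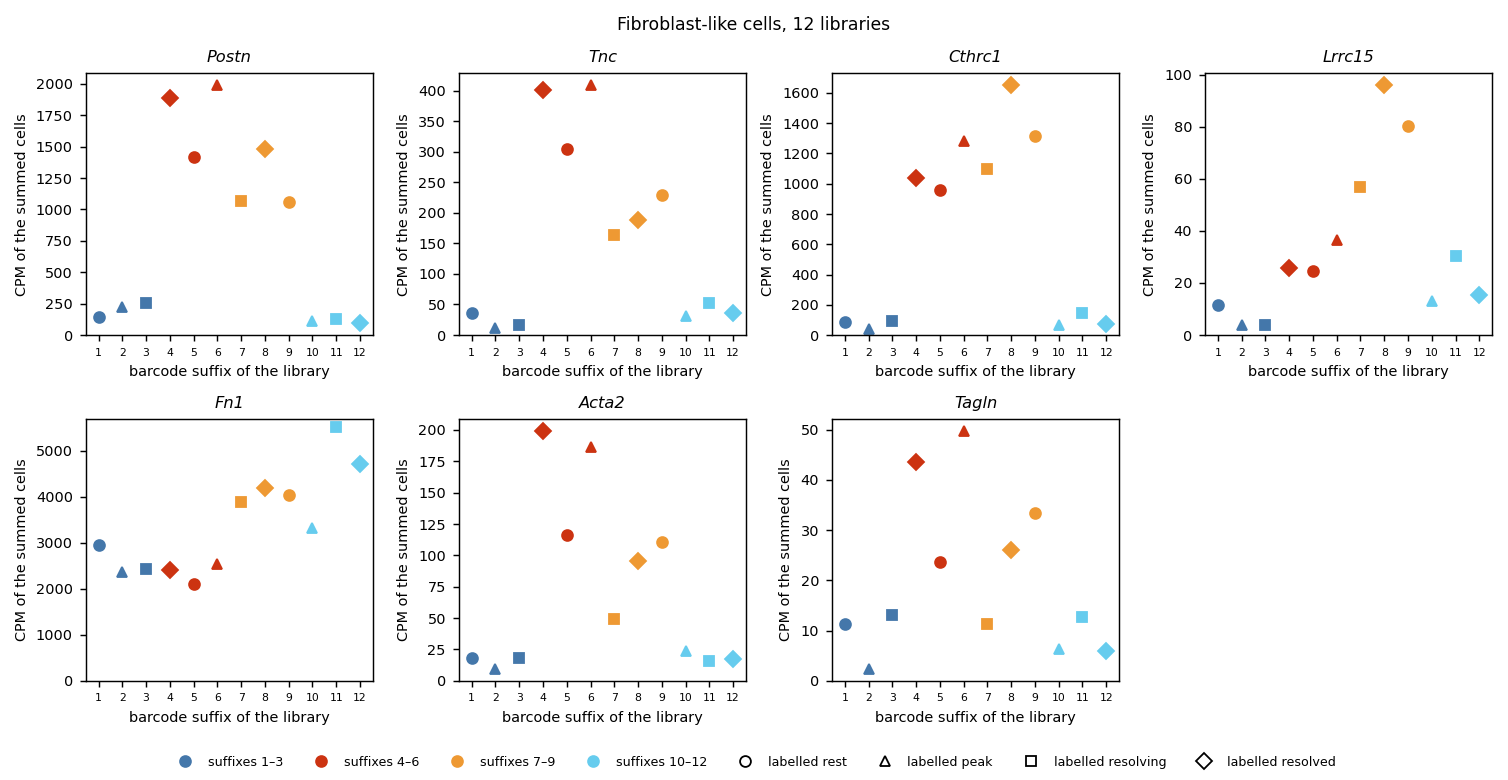
CPM of 7 genes in the summed fibroblast-like cells of the 12 libraries, ordered by barcode suffix, coloured by run and with 1 marker shape per labelled stage. Postn, Tnc and Cthrc1 are high in suffixes 4 to 9, Acta2 is highest in 4 to 6 and Lrrc15 in 7 to 9, and each stage label appears among high and low libraries.

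The related gene lists were set against the 45.5% of all genes called between runs, and a median range of 0.62. Of 28 further fibrillar and scar matrix genes, 25 were called between runs in fibroblast-like cells, with a median range of 1.45, led by Adam12 (5.10), Col5a3 (3.14) and Col12a1 (2.62). Of 22 tested contractile and actin-regulatory genes, 20 were called with a median of 0.91, led by Actg2 (3.66), Tpm2 (2.84) and Myl9 (2.24). Of 20 TGF-beta pathway genes, 14 were called, among them Ltbp4 (2.33) and Ltbp2 (1.94), which bind latent TGF-beta or fibrillin. Of 10 tested receptors of the matrix proteins 6 were called, near that share, led by Itgb3 (1.51), Sdc4 (1.14) and Itga9 (0.82). Of 20 dissociation and immediate early genes 17 were called, with a median of 0.93, led by Hspa1a and Hspa1b (1.45 each), heat shock genes. The part of tissue dissociation in the differences between runs was not tested.

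In perivascular-like cells, Postn and Fn1 were high in suffixes 4 to 9, and Tagln and Acta2 were low in 7 to 9. Postn was at 726, 1301 and 934 CPM in suffixes 4 to 6 and 486, 1121 and 722 CPM in 7 to 9, against 49.2 to 236 CPM in the other 6, without overlap. Fn1 was at 341 to 645 CPM in suffixes 4 to 9 and 67.6 to 218 CPM elsewhere, also without overlap. Tagln was lowest in suffixes 7 to 9, at 2285, 2513 and 2468 CPM, and in the library with suffix 5, at 2319 CPM, while the other 8 libraries lay between 4302 and 6742 CPM. Acta2 was at 6122, 7195 and 5274 CPM in suffixes 7 to 9 and 7875 to 13531 CPM elsewhere.

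Across the 4 runs, edgeR's test called 25.9% of 3196 genes in perivascular-like cells, and 7 of 8 tested members were among them. This is again a description, since the runs were recognised and the members chosen on these libraries. Pooled UMIs of Cthrc1 in this class lay mostly in the 15 fibroblast-marked cells. Ranges were 3.85 for Cthrc1, 3.21 for Postn, 2.70 for Tnc, 2.102 for Fn1, 1.72 for Myh11, 1.23 for Tagln and 1.02 for Acta2. Cnn1, with 1.51, was not called. Without resolved replicate 2 (suffix 8), Cthrc1 came to 2.91 and was not called, and DESeq2, at 3.89, did not call it either. Cnn1 was called without rest replicate 2 (1.86) or without peak replicate 3 (1.51). Libraries differed in the cells behind these sums: the smooth-muscle-like group gave 44, 41, 29 and 36 cells in the 4 runs in order of suffix, the group of 47 cells 15, 7, 7 and 18, and the pericyte-like group 9, 7, 88 and 4. Postn in vascular endothelial-like cells of the same libraries was 145 CPM or less in all but the library with suffix 8, at 160 CPM. The part of cell composition and of free RNA in the perivascular differences was not tested.

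In this class 21 of 25 tested fibrillar and scar matrix genes, 13 of 19 contractile and actin-regulatory genes, 1 of 11 TGF-beta pathway genes (Smad7, 1.63, an inhibitor of the pathway), 3 of 6 receptors and 16 of 20 dissociation genes were called between runs, where 25.9% of all genes were. Nothing is read from the 1 of 11 TGF-beta pathway genes, and no list was tested against that share. The matrix list was led by Thbs2 (3.67), Fbn1 (3.45) and Col1a1 (3.04), and the contractile list by Lmod1 (1.80), Synpo2 (1.46) and Actg2 (1.43). The receptors were Itga8 (2.26), Sdc4 (1.76) and Itga5 (1.31), and the dissociation list was led by Hspa1b (1.85), Hspa1a (1.46) and Btg2 (1.43).

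**Figure D4:**
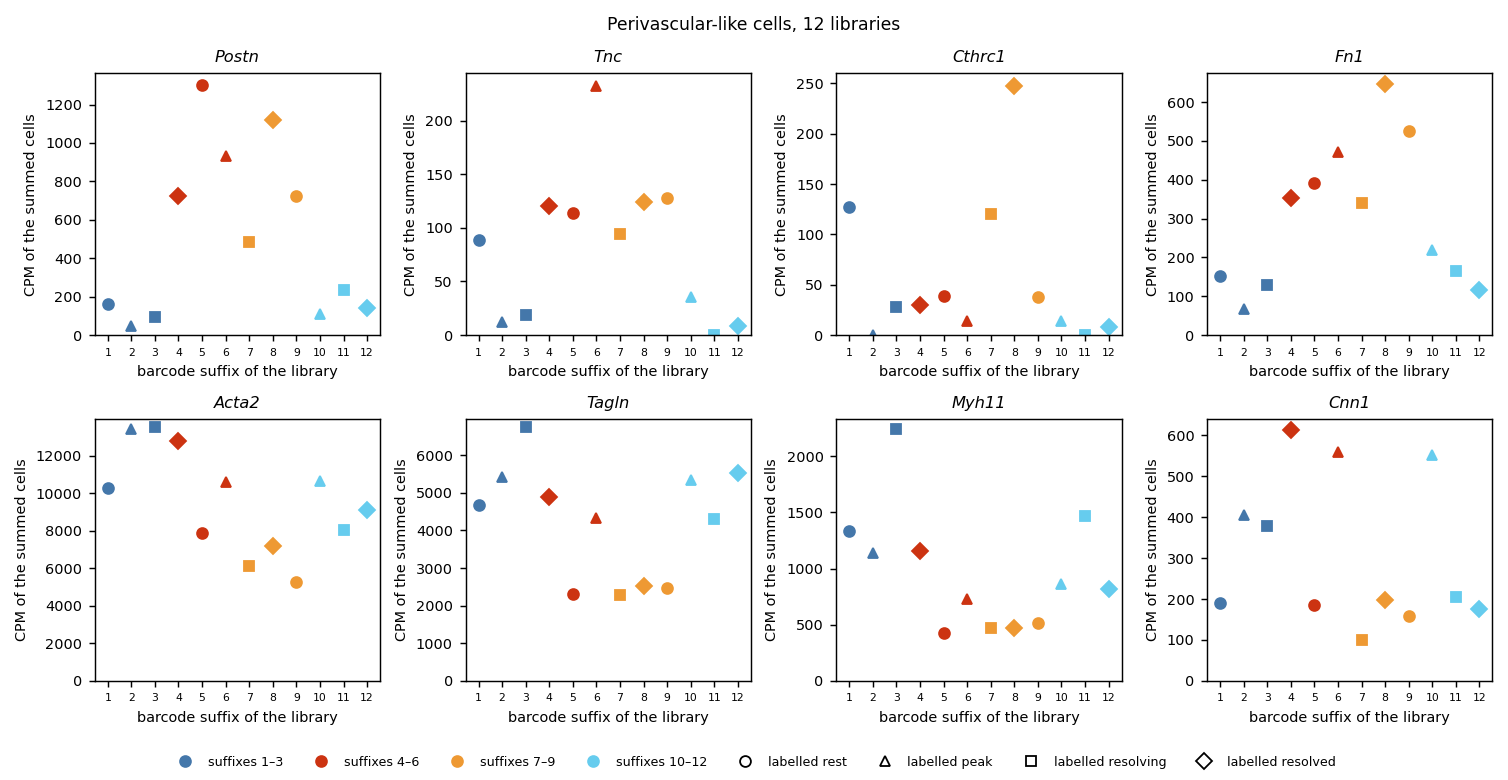
CPM of 8 genes in the summed perivascular-like cells of the 12 libraries, ordered by barcode suffix, coloured by run and with 1 marker shape per labelled stage. Postn and Fn1 are higher in suffixes 4 to 9 than elsewhere, Acta2 and Tagln are low in suffixes 7 to 9.

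The next comparison asked which genes accompanied Lrrc15 in single fibroblast-like cells. Cells with at least 1 UMI of Lrrc15 numbered 1316 of 11653 (11.3%, Wilson interval 10.7% to 11.9%), 757 of them with exactly 1 UMI, and 39.9% of them lay in cluster 0 and 35.9% in cluster 6. After thinning, 4.48% of fibroblast-like and 0.382% of vascular endothelial-like cells (median depths of 5559 and 3188 UMIs) held a UMI of Lrrc15. Their median depth was 8264 UMIs, that of negative cells 5266, and positive cells were the deeper in 12 of 12 libraries. Cthrc1 was at 1218 ± 1044 CPM in positive and 477 ± 436 CPM in negative cells and was higher in 11 of 12 libraries, Tnc was at 252 ± 203 against 129 ± 134 CPM and higher in 12 of 12, and Acta2 was at 142 ± 140 against 48.2 ± 52.5 CPM and higher in 10 of 12. The wide SDs are those between runs, and the test was made within libraries.

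With library as a block and the same adjustment, edgeR called 5 of 6 tested members higher, where 7.17% of 9500 genes were called, 2.26% higher and 4.91% lower. The log2 fold changes were 1.68 ± 0.21 (SE) for Acta2, 1.55 ± 0.17 for Cthrc1, 1.46 ± 0.36 for Tagln, 1.15 ± 0.13 for Tnc and 0.89 ± 0.14 for Postn, with adjusted p of 7.93e-06, 1.95e-06, 0.0073, 2.4e-06 and 7.23e-05. Fn1, at -0.03 ± 0.10, had an adjusted p of 0.899. In DESeq2, Tagln came to 1.23 with an adjusted p of 0.137. Against negative cells drawn from the same clusters, 125 genes were called in place of 681. Cthrc1 (0.95), Acta2 (1.38) and Tnc (0.74) were called in that comparison, while Postn came to 0.27 ± 0.18 with an adjusted p of 0.553 and Tagln to 0.45 ± 0.47 with 0.742. Against negative cells matched in UMIs, 201 genes were called, the 5 members among them.

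Of the genes called with 1 direction in all 12 libraries, the largest rises besides Tnc were C1qtnf3 (1.90 ± 0.23), Islr2 (1.36 ± 0.14), Ociad2 (1.15 ± 0.10) and Duoxa1 (1.14 ± 0.13). The largest falls were Ccl11 (-3.41 ± 0.26), an eosinophil chemokine, Cxcl13 (-3.02 ± 0.32), a B cell chemokine, AW112010 (-2.81 ± 0.22), Gsta3 (-2.55 ± 0.29) and Cadm1 (-2.41 ± 0.39). Of 28 fibrillar and scar matrix genes, 15 were higher and 1, Inhba (-0.52), was lower, led by Col5a3 (1.04), Adam12 (0.97) and Aspn (0.85). Of 20 contractile and actin-regulatory genes 6 were higher, led by Tpm2 (0.92), Myl9 (0.89) and Actn1 (0.74), and Mylk (-0.86), the myosin light chain kinase, was lower. Of 20 TGF-beta pathway genes, 1 was higher, Pmepa1 (0.68), and 2 were lower, Bambi (-0.62) and Ctgf (-0.56). Of 9 tested receptors, 1 was higher, Itgb3 (0.67), and 1 lower, Itgb8 (-1.05). With 1 or 2 genes each, nothing is read from these counts beside the 2.26% and 4.91% of all genes. Of 20 dissociation and immediate early genes 0 were higher and 8 lower, led by Socs3 (-1.13), Junb (-0.69) and Fos (-0.64). The median log2 fold change over all genes tested was 0.01, over the matrix list 0.51 and over the dissociation list -0.30.

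The same comparison was made for Acta2, seen in 1557 fibroblast-like cells (13.4%), of which 875 held exactly 1 UMI. The thinned share lay between those of the 2 endothelial clusters, and free RNA was not measured. Whether a single UMI marks expression in that cell was therefore not tested. The median depth of the positive cells was 8860 UMIs and that of the 10096 negative cells 5264, and positive cells were deeper in 12 of 12 libraries. Cluster 0 held 48.7% of the positive cells. Tagln was at 71.3 ± 44.5 CPM in positive and 6.95 ± 4.14 CPM in negative cells, higher in 11 of 12 libraries, the exception being peak 1 with 0 UMIs in its positive cells. Cthrc1 was at 991 ± 908 against 538 ± 508 CPM, higher in 12 of 12. Fn1 was at 2765 ± 950 against 3457 ± 1129 CPM and was lower in 11 of 12. Myh11 had 38 UMIs in all positive cells together and 37 in all negative cells, or 1.36 ± 2.52 against 0.552 ± 0.585 CPM, higher in 4 of 12 libraries. Of its UMIs in positive cells, 19 lay in resolved replicate 1 and 15 in rest replicate 2. Cnn1 had 34 and 18 UMIs, or 1.46 ± 1.66 against 0.293 ± 0.335 CPM, higher in 6 of 12 libraries. Neither passed the filter on low counts, so these were not tested.

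In edgeR's test with library as a block and Benjamini-Hochberg adjustment, 5 of 6 tested members were called higher, where 6.13% of 9850 genes were called, 2.17% higher and 3.96% lower. The log2 fold change was 3.19 ± 0.25 for Tagln, 1.01 ± 0.10 for Cthrc1, 0.97 ± 0.11 for Lrrc15, 0.72 ± 0.10 for Tnc and 0.63 ± 0.12 for Postn, with adjusted p of 1.12e-07, 2.13e-06, 7.41e-06, 8.51e-05 and 0.00133. Fn1 came to -0.35 ± 0.08 with an adjusted p of 0.00736, short of the limit of 0.5 on the fold change. Against negative cells of the same clusters, where 82 genes were called in place of 604, Tagln (2.78), Lrrc15 (0.53) and Cthrc1 (0.52) were called, and Tnc (0.36, adjusted p 0.0849) and Postn (0.31, adjusted p 0.141) were not. Against negative cells matched in UMIs, 139 genes were called, and Tnc (0.33, adjusted p 0.114) and Postn (0.54, adjusted p 0.0538) were not among them, while Fn1 was called lower at -0.51. With positive cells counted from 2 UMIs of Acta2, 1230 genes were called, and Tagln came to 3.65, Cthrc1 to 1.21, Lrrc15 to 1.25, Tnc to 0.99, Postn to 0.83 and Fn1 to -0.72, all 6 called. Peak replicate 1 and resolving replicate 1 had too few such cells for a sum, so that fit lacks their positive cells.

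**Figure D5:**
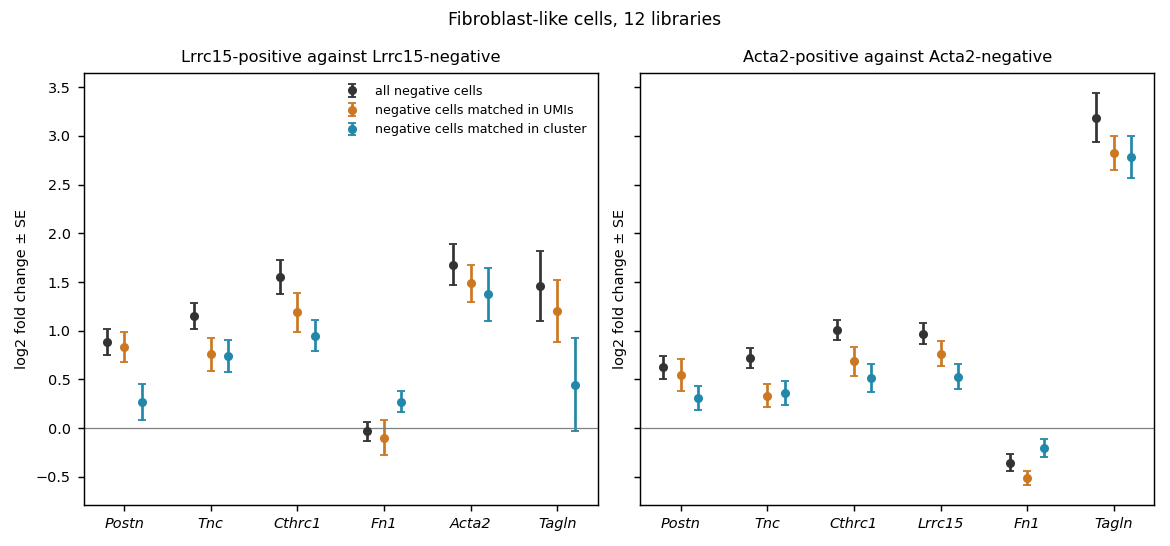
Log2 fold change with its SE of the tested members between positive and negative fibroblast-like cells, for Lrrc15 (left) and Acta2 (right), against all negative cells and against negative cells matched in UMIs or in cluster. Cthrc1 is above 0 in all 6 fits, Tagln stands at 2.78 or higher in the Acta2 fits, and Fn1 lies near or below 0 except against cluster-matched Lrrc15-negative cells.

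Of 20 contractile and actin-regulatory genes 8 were called higher and 0 lower in the Acta2 comparison, where 2.17% of all genes were called higher and 3.96% lower. The largest rises with 1 direction in all 12 libraries were Myl9 (2.09 ± 0.13), Cnn2 (1.40 ± 0.09), Tpm2 (1.32 ± 0.11, a tropomyosin), Col8a1 (1.15 ± 0.20) and Col12a1 (1.08 ± 0.11), and the largest falls Ccl11 (-1.99 ± 0.26), Ccl8 (-1.63 ± 0.13), AW112010 (-1.56 ± 0.19), Col22a1 (-1.52 ± 0.22) and Inmt (-1.48 ± 0.26). Of 28 matrix genes 8 were higher and 0 lower, led by Col8a1, Col12a1 and Adam12 (0.97). Ltbp2 (0.57) was higher and Ltbp4 (-0.75) lower among 20 TGF-beta pathway genes, no receptor was called (4 of 9 had an unadjusted p under 0.05 in edgeR), and Hspa1b (-0.51) was the 1 of 20 dissociation genes called. With 1 gene or none each way, nothing is read from the counts of these lists beside those shares. The median was 0.00 over all genes tested, 0.38 over the contractile list and 0.35 over the matrix list.

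Markers of mural cells were set beside these results. The 8 perivascular markers summed to 484 ± 121 CPM in Acta2-positive and 371 ± 67.4 CPM in Acta2-negative fibroblast-like cells and were higher in 11 of 12 libraries, with Ndufa4l2 the most abundant. The 6 pericyte markers summed to 107 ± 30 against 126 ± 39.5 CPM, and the 8 smooth muscle markers, led by Mustn1, to 174 ± 156 against 222 ± 112 CPM, each higher in 2 of 12 libraries, with 1 smooth muscle marker at 0 in positive cells. For Lrrc15 the perivascular markers summed to 429 ± 172 against 382 ± 70.7 CPM, higher in 7 of 12, the pericyte markers to 83.2 ± 43.9 against 126 ± 33.4 CPM, higher in 0 of 12, and the smooth muscle markers to 279 ± 249.3 against 217 ± 111 CPM, higher in 4 of 12. Proliferating-cell markers summed to 25.5 ± 21.1 CPM in Lrrc15-positive and 16.3 ± 14.4 CPM in Lrrc15-negative cells, higher in 10 of 12, and to 24.4 ± 23.3 against 14.7 ± 11.3 CPM by Acta2 status, higher in 7 of 12. The part of cycling cells in these results was not tested. Without the cells of the highest doublet scores, Tagln stayed at 3.18 and Cthrc1 at 1.11 in Acta2-positive cells, and Acta2 at 1.77 in Lrrc15-positive cells, on the log2 scale.

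Cells with at least 2000 UMIs were also thinned to that number, which sets them to 1 depth. Cthrc1 was seen in 66.8% ± 28.4 of Lrrc15-positive and 32.9% ± 21.7 of Lrrc15-negative cells (SD, n = 10 libraries with at least 10 positive cells). Acta2 was seen in 18.2% ± 11.9 against 5.90% ± 3.91 of the same cells, and Tagln in 9.24% ± 6.61 of Acta2-positive and 1.36% ± 0.726 of Acta2-negative cells (n = 12). Fn1 was seen in 91.4% ± 6.96 of Lrrc15-positive and 77.2% ± 6.51 of Lrrc15-negative cells, whereas the fit on summed UMIs gave it -0.03. By Acta2 status, Fn1 was seen in 75.0% ± 20.1 of Acta2-positive and 75.2% ± 8.03 of Acta2-negative cells, a difference smaller than the spread between libraries.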

How the data were processed

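The deposited files hold counts: whole-number UMIs per gene and cell from 10x 3′ (version 2) libraries, which the authors made with Cell Ranger on mm10, as the submitters' processing notes name them. Median UMIs per deposited cell were equal in all 12 libraries, although their means differed, and a step that sets them equal is not given in the sources used here. The members and gene lists were chosen with earlier results of these data known.

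Cells were kept with over 500 genes and 500 UMIs, under 5000 genes and under the study's UMI limit (20000, or 40000 for peak and 25000, 30000 and 30000 for resolving, whose letters were read as replicates 1 to 3). Clustering used scanpy 1.11.5 (2000 variable genes, 30 components, 20 neighbours, Leiden resolution 1, seed 1), without the 9 genes. A class needed 4 of its markers in 20% of the cells at a log2 fold change of 1, and fibroblast-like clusters 5 markers in 30%. These limits were set after the clusters were seen. Scrublet's own threshold called 56 cells, so all cells stayed, and an alternative removed the highest 6% of scores in each library (1204 cells).

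UMIs were summed per library and class (at least 10 cells) and tested with edgeR 4.0.16 (TMM, filterByExpr, quasi-likelihood F-test, Benjamini-Hochberg adjustment over all genes tested) in R 4.3.3, with DESeq2 1.42.0 as an alternative. Calls needed an adjusted p under 0.05 and an absolute log2 fold change over 0.5. The fits were also run on simulated counts, drawn independently per library with the spread of each gene taken from these sums. For the stage fits the likeness of libraries within a run was not simulated, and the outcome is not given here. A library pools 3 animals, and the labels call the 3 of a stage biological replicates. Named genes were the 9, the 3 largest called changes each way in each list, the 5 largest with 1 direction in every library for positive against negative cells, and the 3 most alike over clusters.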

Additional observations from a re-analysis of the deposited data

Results flagged for a closer look

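In 38 groups of 4 to 10 libraries, 1 library stood apart from the others of its class for 10 values by Dixon's test, where chance gives about 1 in 20 for values that vary freely. Most of these values rest on few UMIs, and where all other libraries are at 0 the test is met by construction. In chondrocyte-like cells (8 libraries), Fn1 was 6440 CPM in resolved replicate 2 against a median of 2851 CPM, Cnn1 was 45.8 CPM (6 UMIs) in the same library and Myh11 was 6.24 CPM (6 UMIs) in rest replicate 1, both against a median of 0. In lymphatic endothelial-like cells (10 libraries), Fn1 was 2255 CPM in peak replicate 2 against a median of 286 CPM, and Lrrc15 was 7.84 CPM (1 UMI) in resolved replicate 2 and 0 in the other 9. In muscle-like cells (8 libraries), Tagln was 250.2 CPM (8 UMIs) in rest replicate 3 against a median of 42.6 CPM, and Lrrc15 was 13.1 CPM (1 UMI) in peak replicate 1 and 0 in the other 7. In proliferating-like cells (6 libraries), Tagln was 405 CPM in rest replicate 3 against a median of 48 CPM. In cells left unnamed (5 libraries), which carried mature muscle genes, Acta2 was 93.1 CPM (8 UMIs) in resolving replicate 3 and Tagln 5.21 CPM (1 UMI) in peak replicate 3, both against a median of 0.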

How the results depend on the processing

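Leaving out 1 library kept every count of called genes within 1.5 times: 0 to 0 in all 6 stage contrasts, 4834 to 5386 and 663 to 858 between runs in fibroblast-like and perivascular-like cells, 572 to 694 for Lrrc15 and 487 to 646 for Acta2 status. By stage, DESeq2 called 1 gene at resolving and 1 at resolved in fibroblast-like cells, and without the filter on low counts edgeR called 10, 12 and 9 genes in perivascular-like cells. For Lrrc15 status, 333 genes were called with no library block, 201 with negative cells matched in UMIs and 125 with negative cells matched in cluster. For Acta2 status the counts were 107, 139 and 82, and 1230 with positive cells from 2 UMIs. The cause of these shifts was not tested.

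Same-numbered libraries deviated together with r between -0.56 and 0.69, so the replicate numbers were not taken to pair them. With the replicate block, 3470 genes were called between runs in fibroblast-like and 145 in perivascular-like cells, 2 at resolved in perivascular-like cells, 353 for Lrrc15 and 180 for Acta2 status.

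Directions turned mostly in stage contrasts that were not called. With the run of 3 suffixes as a block, log2 fold changes in fibroblast-like cells became 0.51 for Postn and 0.026 for Acta2 at peak, 0.46 for Postn, 0.27 for Cthrc1 and 0.025 for Tagln at resolving, and -0.32 for Tnc, -0.020 for Cthrc1, -0.16 for Lrrc15 and -0.027 for Tagln at resolved, and in perivascular-like cells 0.38 for Tnc at peak and -0.17 for Fn1 at resolved. Fn1 at peak became 0.0063 without upper limits per cell and 0.014 at Leiden resolution 0.5. Lrrc15 at resolving became 0.16 and 0.21 under the same settings and 0.28 with tenocyte-like and proliferating cells added, where Tagln at resolved became -0.18. In perivascular-like cells at resolved, Fn1 became -0.0057 with DESeq2 and -0.22 without the highest doublet scores, and Postn 0.11 with the replicate block. Fn1 in Lrrc15-positive cells became 0.27 against negative cells matched in cluster.

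Without 1 library, log2 fold changes that changed sign are given as ranges. In fibroblast-like cells at peak, they ran from -2.38 to 0.40 for Postn, -3.16 to 0.23 for Tnc, -0.28 to 0.16 for Fn1, -2.26 to 0.36 for Acta2 and -2.29 to 0.32 for Tagln. In fibroblast-like cells at resolving, they ran from -1.15 to 0.74 for Lrrc15. In fibroblast-like cells at resolved, they ran from -0.22 to 0.95 for Postn, -0.81 to 0.69 for Tnc, -0.50 to 0.74 for Cthrc1, -0.85 to 1.30 for Lrrc15, -0.58 to 0.82 for Acta2 and -0.50 to 0.61 for Tagln. In perivascular-like cells at peak, they ran from -2.01 to 0.30 for Tnc and -0.048 to 0.94 for Myh11. In perivascular-like cells at resolving, they ran from -2.20 to 0.53 for Cthrc1, -0.17 to 0.48 for Acta2 and -0.30 to 0.70 for Cnn1. In perivascular-like cells at resolved, they ran from -0.73 to 0.55 for Postn, -0.55 to 0.12 for Tnc, -1.60 to 1.502 for Cthrc1, -0.56 to 0.45 for Fn1 and -0.25 to 0.77 for Myh11. For Lrrc15 status they ran from -0.078 to 0.046 for Fn1.

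Over the 9 genes, settings other than leaving out a library kept the call and direction for 355 of 378 stage values, 111 of 119 run values and 93 of 120 status values. Of the status values 24 were no longer called, and of the run values 7. The losses named with the Lrrc15 and Acta2 results are only part of these. Few UMIs limit what can be said of Myh11 and Cnn1 in fibroblast-like cells (75 and 52 UMIs) and of Lrrc15 in perivascular-like cells (48 UMIs).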
